A study of Bos taurus with 27 samples.

Results

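Proliferation and DNA replication genes were followed in the rumen epithelium (RE) of Japanese Black beef cattle through the fattening period. The genes were a named list of 40, which holds the licensing and fork proteins of DNA replication, the enzymes that supply deoxynucleotides, the cyclins with their kinase, and the kinases, checkpoint proteins and motors of mitosis. A gene was taken from the array where the gene name of a probe that is not a control equaled the name in the list, and 36 of the 40 were found among 14952 gene names, each with 1 probe. No probe carried the names MKI67, TOP2A, MCM2 or CENPA, and these genes were not analysed here. The rule uses gene names, and no measured value entered it, since no member had several probes.

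The study took RE biopsies from the same 9 castrated and fistulated cattle at the early, middle and late stages of fattening, at 14, 21 and 29 months of age, and measured 1 biopsy per animal and stage on 27 one-color arrays. All cattle were kept on high-concentrate diets throughout, so no group was left without grain. The ration itself changed: the paper gives less forage relative to concentrate in the middle and late stages than in the early stage. The crude protein of the concentrate also fell from stage to stage. Stage, age, ration and time on the diet therefore cannot be told apart. The middle stage was compared with the early stage (first period), the late stage with the middle stage (second period) and the late stage with the early stage (total period), within animals. The first and second periods share the middle-stage arrays, so their values are given side by side only.

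The RE is a stratified epithelium whose cells divide in the basal layer and differentiate as they move toward the lumen. In a dividing cell, origins are licensed by CDC6 and CDT1, which load the MCM ring onto DNA, and the ring becomes the moving helicase when CDC45 and the GINS complex join it. Cyclin E opens S phase, cyclins A and B with CDK1 drive the cell to mitosis, and the checkpoint built on BUB1, BUB1B and MAD2L1 holds back CDC20 and the anaphase-promoting complex (APC/C) until the chromosomes are attached. Transcripts of these genes rise and fall with the cycle, and their sum is widely read as a measure of how many cells of a tissue are cycling. A biopsy holds all layers, so fewer dividing cells and less RNA per dividing cell cannot be told apart here.

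Each gene was read by a single 60-base probe. The probes of 5 members that changed 2-fold or more are shown because the results turn on what they hybridize to. Each of the 5 has at least 1 sense reading frame without a stop codon. So do 28 of the 36 member probes, MCM3 among them, and the trait does not show which gene a probe reads. The letters are those of the array design, in the sense direction and without capitals. Coordinates are those of the design on the UMD 3.1 build.
MCM5, chr5:74001438-74001821, plus strand: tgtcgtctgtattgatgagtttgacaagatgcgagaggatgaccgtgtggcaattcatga
BUB1, chr11:1567453-1567512, plus strand: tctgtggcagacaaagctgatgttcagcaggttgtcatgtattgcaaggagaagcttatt
BUB1B, chr10:35925086-35925142, plus strand: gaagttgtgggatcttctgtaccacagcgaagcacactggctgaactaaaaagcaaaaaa
CDC20, chr3:103241579-103241638, minus strand: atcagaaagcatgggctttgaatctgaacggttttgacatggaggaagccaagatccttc
TPX2, chr13:61862815-61862874, plus strand: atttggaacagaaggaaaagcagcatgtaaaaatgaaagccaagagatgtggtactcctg
The MCM5 probe covers 384 bases of the genome, so its match to the genome is split. The probes of GINS2, KIF11, AURKB and CCNB1 also cover more than 60 genomic bases, whereas the other 31 lie on 60 bases or fewer. Accessions of 30 of the 36 probes were matched to the RefSeq gene table (ARS-UCD2.0), and the symbol was the same for all 30. The remaining 6 probes (CDT1, MCM3, CCNB1, AURKB, UBE2C and CENPE) have the name of the design alone. For MCM3 the labels of the design conflict, since the probe is named MCM3 and placed on chromosome 23 while its description names C14orf44, so values under that name belong to a probe of uncertain identity.

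Levels are given as log2 of the processed signal over the median of the array, and a change is a difference of such levels, so every change is relative to the rest of the array. The middle-stage arrays were dimmer than the others. Their median processed signal was 8.06 to 28.1, against 34.5 to 47.6 in the early stage and 31.4 to 46.0 in the late stage, and 27 to 35 of the 36 members were well above background on them, against 34 to 35 and 32 to 34. Across all 27 arrays, 26 members were well above background throughout, 34 were so on all arrays of at least 1 stage, KIF11 was so on 8 arrays of which none was late, and UBE2C was so on none. Slides nearly coincide with stages: slide 2 alone holds 2 stages (1 early and 7 middle-stage arrays), and the first of 4 scan days holds all 9 early and 7 middle-stage arrays. The basal-layer keratins KRT5, KRT14 and KRT15 and the suprabasal genes KRT6A, KRT10, IVL and TGM1 were well above background on all arrays. KRT4 was above background on none. The summed linear level of the 6 suprabasal genes measured, in multiples of the array median, was 2077 to 2971 in the early stage, 209 to 2346 in the middle stage and 2965 to 3704 in the late stage. That of 7 basal-layer genes was 961 to 1934, 620 to 2025 and 795 to 1352. Of 5 smooth muscle and fibroblast genes it was 123 to 560, 118 to 992 and 109 to 267. These shifts in layer and cell type markers accompany the values that follow, and their part in them was not tested.

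In the first period, 12 of the 36 members were higher and 8 were lower in the middle stage at an adjusted *P* below 0.05, with 16 not called. Among all 15008 probes, 45.3% were higher and 21.3% lower, so the share of higher members (33.3%) lay under that of the array and the share of lower members (22.2%) close to it. The median change was 0.29 in the members and 0.32 over all probes. With background correction by normexp (offset 50) the members split into 6 higher and 9 lower, where 45.4% and 22.2% of all probes were. With slide as a fixed block no member was called, nor was more than 0.00666% of all probes in either direction, and 2 members passed an unadjusted *P* below 0.05. The median SE of the members was 0.736 in that fit, against 0.224 in the main fit. Its stage change also turns on animals 8 and 9, whose arrays alone pair the slides differently. It therefore cannot tell an absent change from an unresolved one. Slide 2 alone holds 1 early array and gave a median change of 0.20 in the members and 0.22 over all probes. On the first scan day alone 13 members were higher and 9 lower, where 38.4% and 18.8% of all probes were. Of all 48 calls of single members in the 3 periods, 18 held both with the normexp correction and with slide as a random block. These were MCM3 in all 3 periods, GINS2, BUB1, BUB1B, KIF11 and TPX2 in the first and second, BIRC5 and PRC1 in the first, and CDC20, UBE2C and CENPE in the second. Of the 18, 9 are second-period calls and 1 is a total-period call. The late-stage arrays share no slide and no scan day with another stage. For these calls the random block therefore cannot separate slide from stage, and it also leaves out the animal term. The normexp offset exceeds the median processed signal of every array, so that setting compresses the changes of dim probes. UBE2C was well above background on no array, so its place among the 18 does not show a measured change. KIF11 was well above background on 3 early, 5 middle-stage and no late-stage arrays, so its places among the 18 show no measured fold.

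In the second period, 6 members were higher and 17 were lower in the late stage, with 13 not called. The array had 27% of probes higher and 44.6% lower, so the share of lower members (47.2%) was close to the background and that of higher members (16.7%) was below it. The median change was −0.28 in the members and −0.27 over all probes. The normexp correction gave 10 higher and 9 lower members, where 32.5% and 46.7% of all probes were. Slide as a random block gave 3 higher and 10 lower members, where 18.4% and 34.8% of all probes were. In the total period, 1 member (MCM3) was higher and 4 (TK1, BUB1, CDC20 and KIF11) were lower, against 11.2% and 8.93% of all probes, and 31 members were not called. KIF11 was well above background on 3 early arrays and on no late-stage array, so its total-period call carries no fold. The median change over the total period was −0.22 in the members and 0.03 over all probes. The 4 lower members became 0 with the normexp correction and with slide as a random block, 2 by quantile normalization and 7 by scaling to the 75th percentile. Of all probes, 2.61%, 1.51%, 7.24% and 12.9% were lower under these 4 settings in the same order, so the array share moved as well.

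Those counts include probes near background, whose number differed between stages, and the same counts were therefore taken among the 6797 probes that cleared background on every array. Of these, 34.9% were higher and 26.9% lower in the first period, 37.8% higher and 30.4% lower in the second period, and 18% higher and 7.94% lower in the total period. The 26 members among them had 9 higher and 3 lower in the first period, 2 higher and 13 lower in the second period, and 1 higher and 2 lower in the total period. In this set the median change of the members was 0.31, −0.36 and −0.16, beside 0.08, 0.10 and 0.14 over the bright probes. The share of lower members in the second period, 50%, was above that of the bright probes, but signal was not matched and the difference was not tested. The filter also chooses through the dim middle-stage arrays. It left out GINS2, CCNE2, BIRC5 and PRC1, which were higher in the second period, and CDC20, UBE2C, KIF11 and TPX2, which were lower. No conclusion about the members is drawn from the 50%.

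**Figure D1:**
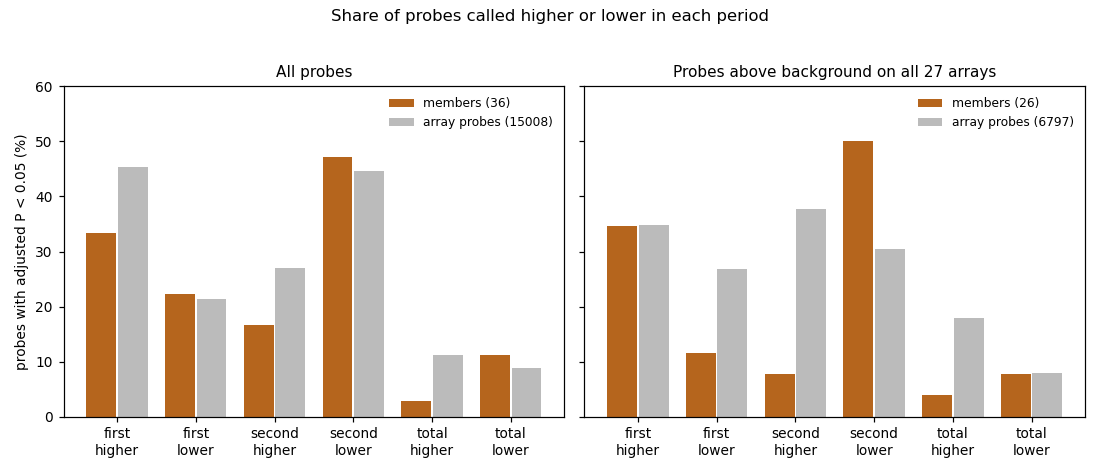
Share of probes (percent, vertical axis) with an adjusted P below 0.05, higher or lower in the first, second and total periods, for the members (brown bars) and the array (gray bars), over all probes on the left and over probes well above background on all 27 arrays on the right. Over all probes, 47.2% of members and 44.6% of the array were lower in the second period, whereas in the bright set 50% of members and 30.4% of probes were. The bright set leaves out members that were dim on middle-stage arrays, among them some that were higher in the second period.

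**Figure D2:**
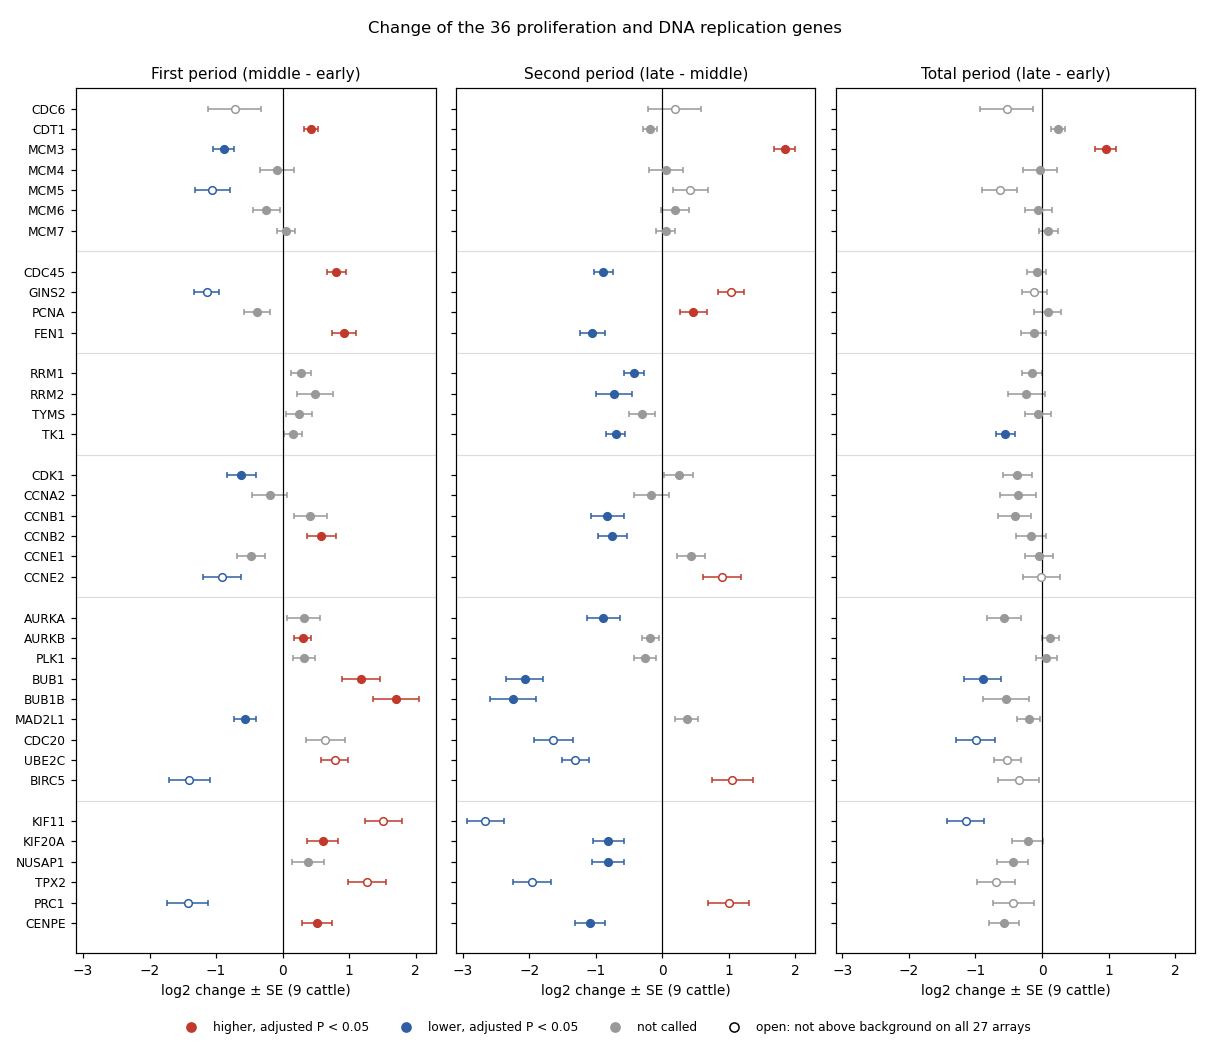
Change of each of the 36 members (horizontal axis, log2 with SE from limma over 9 cattle) in the first, second and total periods, ordered by role from licensing at the top to spindle and kinetochore at the bottom, with gray lines between roles. Red and blue points passed an adjusted P of 0.05 upward and downward, gray points did not, and open points mark members that were not well above background on all 27 arrays. KIF11, BUB1B, BUB1 and TPX2 reach furthest to the left in the second period, and MCM3 is the 1 red point of the total period. KIF11 was well above background on no late-stage array, so its place is not a measured fold.

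The counts by role that follow stand beside array shares of 45.3% higher and 21.3% lower in the first period, 27% and 44.6% in the second, and 11.2% and 8.93% in the total period, and with 4 to 9 genes a group none is read as particular to its role. Of the 7 licensing genes, 1 was higher and 2 were lower in the first period, 1 was higher in the second period, and 1 was higher in the total period. MCM4, MCM6 and MCM7, which are subunits of the same ring helicase, passed in no period, and their changes lay between −0.25 and 0.19. The intervals (95%) of the total-period change were −0.56 to 0.50 for MCM4, −0.49 to 0.37 for MCM6 and −0.20 to 0.39 for MCM7. MCM7 had a median level of 5.65 in the early, 5.70 in the middle and 5.85 in the late stage.

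MCM5, a subunit of the same ring, had levels of −0.67 to 0.71 (median 0.00) in the early stage, −2.04 to −0.58 (median −1.12) in the middle stage and −1.86 to 0.05 (median −0.66) in the late stage. It was lower in the middle stage in all 9 cattle, although the 2 stages overlapped. Its change was −1.05 ± 0.27 (SE, adjusted *P* = 0.00192) in the first period, 0.42 ± 0.27 (adjusted *P* = 0.162) in the second and −0.64 ± 0.27 (adjusted *P* = 0.0995) in the total period. The probe was called above background on 7 of the 9 arrays of the middle stage, with a median processed signal of 9.42 there and 36.7 in the early stage.

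The probe named MCM3 was the single ring probe called in every period. Its level was 1.23 to 1.93 (median 1.64) in the early stage, −0.07 to 1.13 (median 0.82) in the middle stage and 1.98 to 3.09 (median 2.54) in the late stage. The 3 stages did not overlap. It fell by 0.88 (SE 0.16, adjusted *P* = 0.000104) in the first period, was higher by 1.84 (SE 0.16, adjusted *P* = 1.46e-08) in the second and by 0.96 (SE 0.16, adjusted *P* = 0.000303) in the total period, each in 9 of 9 cattle. With the conflict in its labels described above, these values may not be those of the helicase subunit.

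The loading factors CDT1 and CDC6 gave different values. CDT1 was higher by 0.42 ± 0.11 (adjusted *P* = 0.00200) in the first period in 9 of 9 cattle, a change that became −0.10 with the normexp correction and −0.091 on slide 2 alone. CDC6, the ATPase that loads the ring together with CDT1, changed by −0.72 ± 0.40 (adjusted *P* = 0.118) in the first period. It was called above background on 3 of the 9 arrays of the middle stage, with a median signal of 2.63 there.

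Of the 4 replication fork genes, 2 were higher and 1 was lower in the first period, 2 were higher and 2 lower in the second period, and none was called in the total period, also at an unadjusted *P* below 0.05 (0 of 4). FEN1, the flap endonuclease that trims Okazaki fragments, had levels of 3.48 to 4.21 (median 3.74) in the early stage, 4.35 to 5.07 (median 4.62) in the middle stage and 2.70 to 4.31 (median 3.74) in the late stage. The middle stage stood above both others without overlap. The change was 0.92 ± 0.18 (adjusted *P* = 0.000269) in the first period and −1.05 ± 0.18 (adjusted *P* = 5.58e-05) in the second, in 9 of 9 cattle each. CDC45, the partner that activates the helicase, was higher by 0.81 ± 0.15 and then lower, at −0.89 ± 0.15, also in 9 of 9 cattle each. On the linear scale the median FEN1 signal was 562 in the early, 459 in the middle and 515 in the late stage, so its rise is relative to arrays whose median signal was lower.

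GINS2, a subunit of the GINS complex that sits with CDC45 on the helicase, ran the opposite way to CDC45. Its level was 0.50 to 1.63 (median 0.99) in the early stage, −1.04 to 0.18 (median −0.04) in the middle stage and 0.30 to 1.63 (median 0.77) in the late stage. All 9 middle-stage values lay below those of both other stages. The change was −1.14 ± 0.19 (adjusted *P* = 5.51e-05) in the first period and 1.03 ± 0.19 (adjusted *P* = 0.000102) in the second, and −0.11 ± 0.19 in the total period. The probe was called above background on 7 of the 9 arrays of the middle stage.

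PCNA, the sliding clamp of the replicative polymerases and a common stain for cycling cells, had levels of 4.48 to 5.31 (median 4.90) in the early stage, 3.44 to 4.93 (median 4.69) in the middle stage and 4.22 to 5.52 (median 4.91) in the late stage. The stages overlapped, and the 2 lowest middle-stage values came from animals 3 and 4. The change was −0.38 ± 0.20 (adjusted *P* = 0.0942) in the first period, 0.47 ± 0.20 (adjusted *P* = 0.0418, 7 of 9 cattle higher) in the second and 0.08 ± 0.20 (95% interval −0.33 to 0.50) in the total period. The second-period call was lost under 6 of the 9 omissions of an animal, and with scaling to the 75th percentile it was 0.28.

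Of the 4 enzymes of nucleotide supply, 3 were lower in the second period, 1 was lower in the total period and none was called in the first (0 of 4 at an unadjusted *P* below 0.05 by limma, and 1, RRM2, by the paired test of the methods). RRM1 and RRM2 form ribonucleotide reductase, which makes deoxynucleotides, and changed by −0.42 ± 0.15 (adjusted *P* = 0.0147) and −0.72 ± 0.27 (adjusted *P* = 0.0227) in the second period. RRM1 was at 0.39 with the normexp correction and lost its call under 1 of the 9 omissions, and RRM2 lost its call under 3. TK1, the S-phase thymidine kinase, had median levels of 6.71 in the early, 6.84 in the middle and 6.04 in the late stage. It changed by −0.70 ± 0.14 (adjusted *P* = 0.000180) in the second period, lower in 9 of 9 cattle, and by −0.55 ± 0.14 (adjusted *P* = 0.00850) in the total period, lower in 8 of 9 cattle. TYMS, which makes thymidylate, changed by −0.30 ± 0.20 (adjusted *P* = 0.178) in the second period and was not called. The median change of the 4 in the second period was −0.56, and all 4 probes were well above background on every array.

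Of the 6 genes for cyclins and CDK1, 1 was higher and 2 were lower in the first period, 1 was higher and 2 were lower in the second, and none was called in the total period. CDK1, the kinase that starts mitosis, had levels of 1.87 to 2.66 (median 2.32) in the early stage, 0.80 to 2.37 (median 1.74) in the middle stage and 0.64 to 2.91 (median 2.05) in the late stage. The late-stage values spread widest and covered those of both other stages. The change was −0.62 ± 0.22 (adjusted *P* = 0.0174, 8 of 9 cattle lower) in the first period, 0.25 ± 0.22 (adjusted *P* = 0.317) in the second and −0.37 ± 0.22 (adjusted *P* = 0.247) in the total period.

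The B-type cyclins that bind CDK1 did not follow it. CCNB2 was higher by 0.58 ± 0.22 (adjusted *P* = 0.0267) in the first period and lower, at −0.75 ± 0.22 (adjusted *P* = 0.00527), in the second, and CCNB1 was lower in the second at −0.83 ± 0.25 (adjusted *P* = 0.00555). The first-period call of CCNB2 was lost under 5 of the 9 omissions of an animal. CCNA2, the S and G2 phase cyclin, passed in no period, with changes of −0.20, −0.16 and −0.36. CCNE2, a partner of CDK2 at S-phase entry, changed by −0.91 ± 0.28 (adjusted *P* = 0.00823) and 0.90 ± 0.28 (adjusted *P* = 0.00778), but it was called above background on only 3 of the 9 arrays of the middle stage and its sign turned in both periods with the normexp correction. CCNE1 had −0.47 ± 0.21 (adjusted *P* = 0.0544) and 0.42 ± 0.21 (adjusted *P* = 0.0777).

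**Figure D3:**
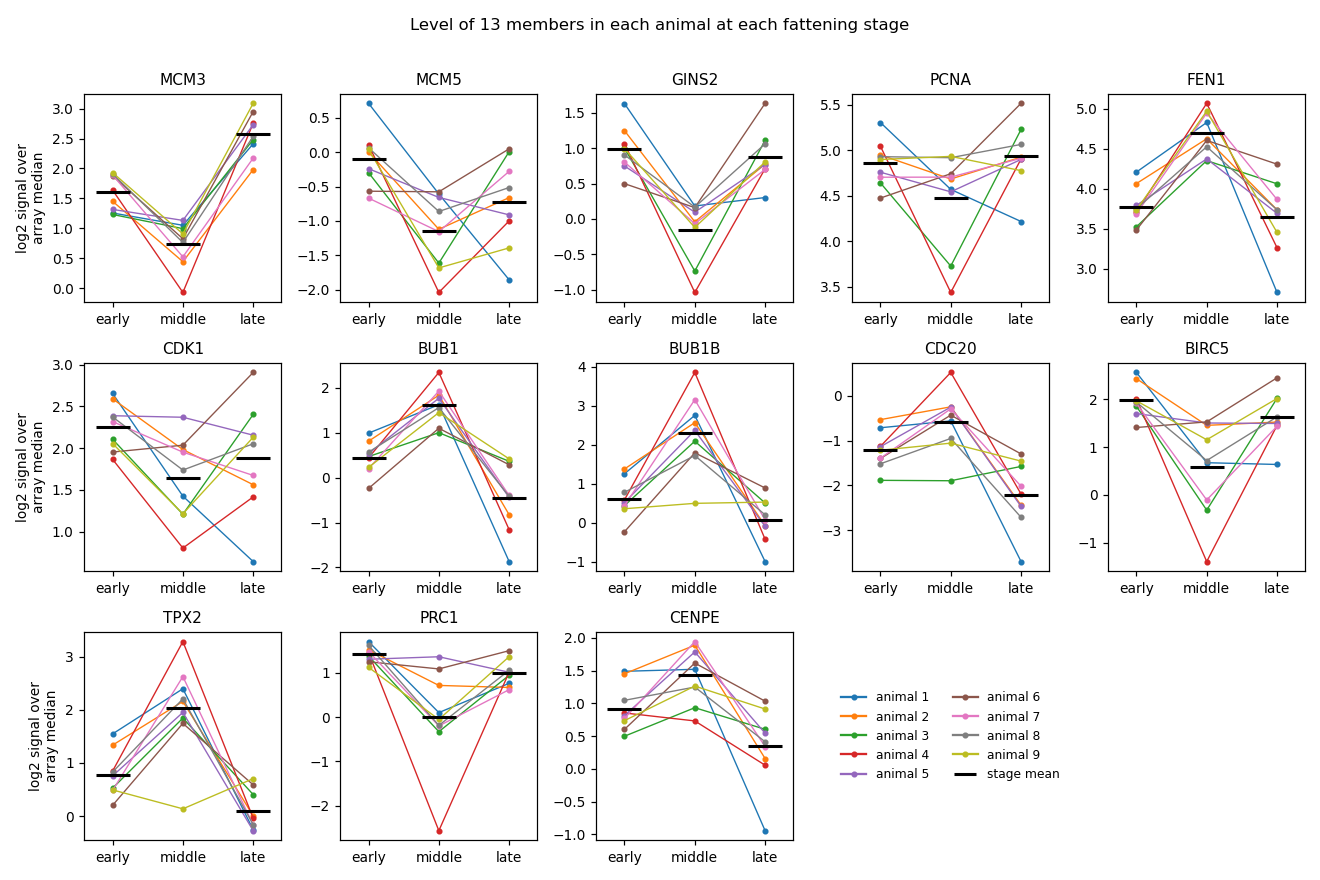
Level of 13 members (vertical axis, log2 processed signal over the array median, with its own scale per panel) in each of 9 cattle at the early, middle and late stages, with the points of an animal joined by a line and the stage mean as a black bar. FEN1, BUB1, BUB1B, CDC20, TPX2 and CENPE have their highest mean in the middle stage. MCM3, MCM5, GINS2, PCNA, CDK1, BIRC5 and PRC1 have their lowest mean there. Animal 4 holds the lowest middle-stage value of PRC1, −2.56.

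Of the 9 mitotic kinase, checkpoint and APC/C genes, 4 were higher and 2 lower in the first period, 1 was higher and 5 were lower in the second (array 27% and 44.6%), and 2 were lower in the total period. BUB1, the kinetochore kinase of the checkpoint, had levels of −0.24 to 0.99 (median 0.47) in the early stage, 1.00 to 2.34 (median 1.62) in the middle stage and −1.87 to 0.42 (median −0.42) in the late stage. The middle stage stood above both others without overlap. The change was 1.18 ± 0.28 (adjusted *P* = 0.00134) in the first period, −2.07 ± 0.28 (adjusted *P* = 3.86e-06), or 4.20-fold lower, in the second, and −0.89 ± 0.28 (adjusted *P* = 0.0310, 7 of 9 cattle lower) in the total period. The last of these lost its call under 6 of the 9 omissions. The median signal was 56.9, 50.4 and 28.9 on the linear scale, so the early and middle stages were close before division by the array median.

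BUB1B, the partner checkpoint protein that holds CDC20, had the largest rise of any member in the first period. Its level was −0.23 to 1.38 (median 0.52) in the early stage, 0.50 to 3.85 (median 2.37) in the middle stage and −1.0 to 0.89 (median 0.07) in the late stage. It was higher in the middle than in the early stage in 9 of 9 cattle, although the stages overlapped. The change was 1.70 ± 0.34 (adjusted *P* = 0.000318), or 3.24-fold, and then −2.24 ± 0.34 (adjusted *P* = 1.44e-05), or 4.73-fold lower, with −0.55 ± 0.34 (adjusted *P* = 0.294) in the total period. Its median linear signal also rose, from 61.9 in the early to 109 in the middle stage, and was 43.0 in the late stage.

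CDC20, the activator that targets the APC/C to its substrates, had levels of −1.89 to −0.53 (median −1.22) in the early stage, −1.90 to 0.52 (median −0.43) in the middle stage and −3.70 to −1.30 (median −2.19) in the late stage. The late stage was the lowest, with animal 1 at −3.70, and it overlapped both others. The change was 0.64 ± 0.29 (adjusted *P* = 0.0601) in the first period, −1.64 ± 0.29 (adjusted *P* = 6.68e-05), or 3.11-fold lower, in the second and −0.995 ± 0.29 (adjusted *P* = 0.0208, 7 of 9 cattle lower) in the total period, the last lost under 3 of the 9 omissions. It was well above background on 9 early, 7 middle-stage and 6 late-stage arrays, so it fell short of the rule for full values, and it was added after its values were seen.

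BIRC5, the survivin subunit of the chromosomal passenger complex, went the other way. Its level was 1.41 to 2.56 (median 1.94) in the early stage, −1.40 to 1.53 (median 0.72) in the middle stage and 0.64 to 2.45 (median 1.52) in the late stage. It was lower in the middle than in the early stage in 8 of 9 cattle, with overlap. The change was −1.40 ± 0.31 (adjusted *P* = 0.000616) in the first period and 1.05 ± 0.31 (adjusted *P* = 0.00481) in the second. AURKB, the kinase of the same complex, had 0.30 ± 0.13 (adjusted *P* = 0.0417) in the first period, a call that was lost under 6 of the 9 omissions and turned to −0.0098 with the normexp correction, and −0.18 ± 0.13 (adjusted *P* = 0.206) in the second.

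The remaining genes of the group were AURKA, MAD2L1, PLK1 and UBE2C. AURKA, the centrosomal kinase, was lower in the second period at −0.88 ± 0.25 (adjusted *P* = 0.00419), and MAD2L1, the checkpoint inhibitor, was lower in the first at −0.56 ± 0.17 (adjusted *P* = 0.00746). PLK1 passed in no period, with changes of 0.32, −0.26 and 0.07. UBE2C, the APC/C ubiquitin-conjugating enzyme, was not well above background on any array, so its calls in the first and second periods carry no fold, and their sign turned with quantile normalization.

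Of the 6 spindle and kinetochore genes, 4 were higher and 1 lower in the first period, 5 were lower and 1 higher in the second (array 44.6% and 27%), and 1 was lower in the total period. TPX2, the spindle protein that activates AURKA, had levels of 0.20 to 1.55 (median 0.76) in the early stage, 0.14 to 3.29 (median 2.16) in the middle stage and −0.28 to 0.70 (median −0.04) in the late stage. It was higher in the middle stage than in the early stage in 8 of 9 cattle and stood lowest of the middle-stage values in animal 9. The change was 1.26 ± 0.29 (adjusted *P* = 0.000829), or 2.4-fold, then −1.95 ± 0.29 (adjusted *P* = 8.44e-06), or 3.87-fold lower, and −0.69 ± 0.29 (adjusted *P* = 0.0966) in the total period. With slide as a fixed block, where the arrays of animals 8 and 9 weigh most, the first-period value was −0.26 (adjusted *P* = 0.901).

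PRC1, which bundles the midzone microtubules of anaphase, had levels of 1.12 to 1.70 (median 1.45) in the early stage, −2.56 to 1.36 (median −0.05) in the middle stage and 0.62 to 1.49 (median 1.01) in the late stage. Its middle-stage values spread most, with an SD of 1.13 against 0.18 in the early stage. The change was −1.43 ± 0.30 (adjusted *P* = 0.000496) in the first period and 1.00 ± 0.30 (adjusted *P* = 0.00670) in the second. The probe was called above background on 6 of the 9 arrays of the middle stage. The middle-stage array of animal 4 had the lowest median signal of all (8.06). Among the 12 members that met the rule for full values, animal 4 gave the lowest middle-stage value of 8. These were MCM3, MCM5, GINS2, PCNA, CDK1, BIRC5, PRC1 and CENPE. Animal 4 gave the highest of the other 4 (FEN1, BUB1, BUB1B and TPX2). That rule leaves out CDC20, KIF11 and UBE2C, which also passed both thresholds. Animal 4 was highest for CDC20 too, but neither lowest nor highest for KIF11 and UBE2C. The probes of KIF11 and UBE2C were not well above background on that array.

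CENPE, the kinetochore motor that moves chromosomes to the plate, had levels of 0.50 to 1.49 (median 0.82) in the early stage, 0.73 to 1.94 (median 1.52) in the middle stage and −0.94 to 1.03 (median 0.42) in the late stage. It was lower in the late than in the middle stage in 9 of 9 cattle, with overlap. The change was 0.52 ± 0.23 (adjusted *P* = 0.0492, lost under 7 of the 9 omissions) in the first period, −1.09 ± 0.23 (adjusted *P* = 0.000275), or 2.13-fold lower, in the second and −0.57 ± 0.23 (adjusted *P* = 0.0816) in the total period. KIF20A, a motor of cytokinesis, and NUSAP1, a spindle-assembly protein, were lower in the second period at −0.81 ± 0.23 (adjusted *P* = 0.00434) and −0.82 ± 0.24 (adjusted *P* = 0.00472). KIF11, the motor that separates the spindle poles, was well above background on 3 early arrays, 5 middle-stage arrays and no late-stage array. Its first-period call therefore carries no fold. Relative to the array medians, its middle-stage mean lay 2.37-fold above the late-stage limit (adjusted *P* = 1.75e-07 for the change by limma). That limit is, per array, the higher of the probe's own signal and the lowest signal well above background. The middle-stage mean includes arrays on which the probe was not above background. Its median linear signal was 7.09 in the middle and 2.01 in the late stage, so the 2.37 depends on division by the array median and is not a firm lower bound.

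The members differed between cattle within a stage. Each array was set against the mean of its stage, gene by gene. In the late stage the median distance of the 36 members ran from −0.97 in animal 1 to 0.73 in animal 6. Its SD over the 9 cattle was 0.458, beside 0.378 for 72 further mitotic genes, 0.443 for 3 red cell genes, 0.325 for 6 leukocyte markers and 0.223 for 5 smooth muscle and fibroblast genes. The median over all probes is held near 0 by the centering of each array on its own median and gives no measure of spread to set beside these. On the late-stage array of animal 1, 1 of 36 members lay above the stage mean, and on that of animal 6, 36 of 36 did. In the early stage these cattle stood the other way around, with 35 of 36 members above the mean in animal 1 (median distance 0.51) and 2 of 36 in animal 6 (median distance −0.37). The SD of the members was 0.264 in the early and 0.263 in the middle stage, under that of the smooth muscle and fibroblast genes (0.524 and 0.760), the red cell genes (0.304 and 0.571) and the leukocyte markers (0.323 and 0.373). Because the 2 cattle changed places, the arrays were checked for exchanged animals over the 100 bright probes that best separated the other 7 cattle. Across stages, arrays labeled as the same animal correlated at 0.71 to 0.87 in animals 1 and 6 (6 pairs), and arrays of animal 1 correlated with those of animal 6 at −0.56 to −0.38 (6 pairs). By these probes each array of the 2 cattle went with its own label.

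Within animals, the total-period change therefore differed widely between cattle. All but 1 of the 36 members were lower in the late than in the early stage in animal 1 (median change −1.75) and 34 were lower in animal 2 (median change −0.77), whereas 34 were higher in animal 6 (median change 0.85). The median change of the members over the 9 cattle had an SD of 0.715 in the total period, 0.524 in the second and 0.332 in the first, and it was above 0 in 3, 2 and 6 of the 9 cattle. Without animal 1 the median total-period change was −0.07 in place of −0.22 and 2 members were lower in place of 4, and without animal 6 it was −0.37 with 4 lower.

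All 6 role groups took part in this spread. In the late stage of animal 1 their median distance from the stage mean was between −1.22 for the cyclins and CDK1 and −0.58 for nucleotide supply, and in animal 6 it was between 0.58 for nucleotide supply and 0.89 for the cyclins and CDK1. For 72 further mitotic genes on the array the values were −0.78 and 0.60, for 48 further replication factors −0.34 and 0.33, and for 27 regulators of the step from G1 to S −0.18 and 0.09. Median distances of the basal-layer genes were 0.16 and 0.01, of the suprabasal genes 0.35 and −0.18, of leukocyte markers −0.09 and −0.29, and of the smooth muscle and fibroblast genes 0.03 and 0.07. Both late-stage arrays lie on slide 4, scanned on the same day, with median signals of 34.6 and 41.0 and with 72.7% of probes well above background on each.

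Further genes of the same processes were counted in 3 lists, and the genes named below are the called ones with the largest rise or fall among those that cleared background on every array of both stages compared. Other genes of the lists, dimmer in a stage or not called, had larger fitted changes. Of 72 further mitotic genes on the array (of 81 listed), 26 were higher and 10 lower in the first period, 8 were higher and 38 lower in the second, and 7 were lower in the total period, beside 45.3% and 21.3%, 27% and 44.6%, and 11.2% and 8.93% of all probes. Their median changes were 0.30, −0.49 and −0.29, beside 0.32, −0.27 and 0.03 over all probes, and of the 32 that were well above background on all arrays 20 were lower and 2 higher in the second period, where 30.4% and 37.8% of all such probes were. This set too leaves out genes that were dim on middle-stage arrays, so no conclusion is drawn from its shares. KIF15, a spindle motor, rose by 1.82 ± 0.27 (adjusted *P* = 1.94e-05) in the first period and changed by −2.27 ± 0.27 (adjusted *P* = 8.59e-07) in the second. BUB3, the partner of BUB1 and BUB1B at the kinetochore, changed by −0.58 ± 0.13 (adjusted *P* = 0.000618) in the first period and 0.92 ± 0.13 (adjusted *P* = 4.53e-06) in the second. CENPW, a protein of the inner kinetochore, changed in the total period by −0.98 ± 0.22 (adjusted *P* = 0.00331).

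Of 48 further replication factors (of 50 listed), 17 were higher and 13 lower in the first period, 14 were higher and 22 lower in the second, and 3 were higher and 3 lower in the total period, against the same array shares. MCM10, which helps activate the helicase, rose in the first period by 1.20 ± 0.20 (adjusted *P* = 5.09e-05), and GMNN, the geminin inhibitor of CDT1, changed by −0.77 ± 0.22 (adjusted *P* = 0.00513). In the second period GMNN rose by 1.05 ± 0.22 (adjusted *P* = 0.000347), and UHRF1, which keeps DNA methylation through replication, changed by −1.34 ± 0.24 (adjusted *P* = 8.08e-05). ORC4, a subunit of the origin recognition complex, rose in the total period by 0.43 ± 0.10 (adjusted *P* = 0.00506).

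Of 27 regulators of the step from G1 to S (of 28 listed), 11 were higher and 5 lower in the first period, 6 were higher and 14 lower in the second, and 1 was higher and 7 lower in the total period, against the same array shares. RBL1, the pocket protein p107, rose in the first period by 1.46 ± 0.17 (adjusted *P* = 1.26e-06), and changed in the second by −2.26 ± 0.17 (adjusted *P* = 2.74e-09). CDK6, a kinase that binds D-type cyclins, changed in the first period by −0.95 ± 0.09 (adjusted *P* = 1.58e-07) and in the second by 0.93 ± 0.09 (adjusted *P* = 6.78e-08). In the total period MYBL2, a transcription factor of the cell cycle, was lower in 9 of 9 cattle at −0.95 ± 0.18 (adjusted *P* = 0.00110), and CCND1, the D-type cyclin of G1, was higher in 8 of 9 at 0.55 ± 0.13 (adjusted *P* = 0.00662).

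Markers of the epithelial layers and of other cell types moved in the same comparisons. Their counts stand beside array shares of 45.3% higher and 21.3% lower in the first period, 27% and 44.6% in the second, and 11.2% and 8.93% in the total period. None is read as particular to a cell type. Of the 7 basal-layer genes, 2 were higher and 2 lower in the first period, 2 were lower in the second and 1 was lower in the total period. KRT14, a keratin of basal cells, changed by −1.12 ± 0.15 in the first period and −1.07 ± 0.15 in the total period, and COL17A1, which anchors basal cells, by 1.30 ± 0.19 and −1.14 ± 0.19 in the first and second periods. Of 6 suprabasal genes, 3 were lower and 1 was higher in the first period, and IVL, the involucrin of differentiating cells, changed by −1.99 ± 0.19, 2.58 ± 0.19 and 0.59 ± 0.19 in the first, second and total periods. The 5 smooth muscle and fibroblast genes had 3 higher in the first period and 4 lower in the second, with ACTA2, the smooth muscle actin, at 0.71 ± 0.30 and −0.97 ± 0.30. The 6 leukocyte markers were split, with 2 higher and 1 lower in the first period and 2 higher and 3 lower in the second. CD3G, a subunit of the T-cell receptor complex, changed by −1.34 ± 0.32 and 2.08 ± 0.32, while PTPRC, the common leukocyte antigen, changed by −1.24 ± 0.23 in the second period. Hemoglobin (HBA), the 1 called of 3 red cell genes, changed by 1.22 ± 0.13 and −1.13 ± 0.13. Of 2 endothelial genes, the adhesion molecule PECAM1 changed by −0.73 ± 0.25 in the total period and the other by 0.04.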

How the data were processed

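RNA of 27 RE biopsies was labeled with cyanine 3 and read on one-color arrays. Intensity values, deposited by the authors, came from Agilent Feature Extraction (version 11.0.1.1 in the file headers, 9.5 in the submitters' processing notes), which subtracts the local background. The deposited log2 values of the series matrix have medians of −3.07 to −2.60, match log2 processed signals centered on the 75th percentile (largest shift 0.0207), and served as an alternative. The 0 or 1 flags for spots well above background, saturated or outlying were used as deposited.

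Of 15646 spots, 15110 were not controls and held 15008 probes. The array median of the log2 processed signal was subtracted and outlier spots were left missing; no member spot was an outlier or saturated. limma 3.58.1 in R 4.3.3 (with statmod 1.5.0 for random blocks) fitted stage and animal, with Benjamini-Hochberg adjustment over 15008 probes in each comparison, and was tested on simulated data. The fits with slide as a random block and on slide 2 alone left out the animal term, so they also drop the pairing. Values are given ± SE. Biopsies of an animal pair the arrays. The sample titles give a stage and a number from 1 to 9, and that number was taken as the animal. After stage means were removed, arrays of 1 animal correlated at 0.158 on average (range −0.151 to 0.461, 24 of 27 pairs above 0) and arrays of different animals at −0.020. The number of arrays limits the precision. Thresholds were 0.05 for the adjusted *P* and 2 for the fold change. Full values are given for members past both that cleared background on each of the 9 arrays of a stage compared, and for PCNA and CDK1; of other lists, the called gene with the largest rise and fall per period among probes well above background in both stages.

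The members, lists and tests were chosen with earlier results of these data known. Motifs in promoters, planned for members that change together, were not analysed here. The protocol label for RNA names neutrophils and liver, whereas the tissue label and the methods give RE.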

Additional observations from a re-analysis of the deposited data

Results flagged for a closer look

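Dixon's limit for 1 array standing apart from the other 8 is passed by chance in about 1 in 20 sets of 9 values. The 108 sets here (36 members in 3 stages) share the same arrays and are not independent, so their count cannot be set against that rate. In 13 of the 108 sets, 1 array stood apart by more than the limit. Of these, 7 were the late-stage array of animal 1, in each case as the lowest: CDC6 at −4.51 (stage median −1.96), CCNA2 at 0.28 (1.85), CCNB1 at 0.54 (2.09), CCNE2 at −2.18 (−0.95), AURKA at 0.27 (1.68), KIF20A at 0.70 (1.98) and CENPE at −0.94 (0.42), all as log2 signal over the array median. The same array had 32 of 36 members well above background and a median signal of 34.6. In the early stage animal 1 held the highest value of MAD2L1, 3.98 (stage median 2.82), and animal 7 the lowest of KIF11, −4.59 (−3.04). In the middle stage the lowest values that stood apart were MCM4 at 3.49 (5.16) and PRC1 at −2.56 (−0.05) in animal 4, CCNB2 at 1.44 (2.45) in animal 3 and TPX2 at 0.14 (2.16) in animal 9. The part of array brightness in these was not tested.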

How the results depend on the processing

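Against the values reported, the normexp correction gave 6 members higher in the first period with a median of −0.091, 10 higher and 9 lower in the second, and 0 lower in the total period (6 at an unadjusted *P* below 0.05). The same shares of all probes were 45.4%, 32.5% and 46.7%, and 2.61%. Slide as a random block, fitted without the animal term, gave 6 higher in the first period, 3 higher and 10 lower in the second and 0 lower in the total period (2 at an unadjusted *P* below 0.05). Here the shares of all probes were 33.2%, 18.4% and 34.8%, and 1.51%. Slide as a fixed block gave 0 higher and 0 lower in the first period, with a median SE of 0.736 for the members against 0.224 in the main fit. Members lower in the total period numbered 7 with scaling to the 75th percentile, with the series matrix and with centering on bright probes (an alternative chosen after seeing the data), and 2 with quantile normalization and the paired test of the methods. Of all probes, 12.9%, 12.7%, 13.4%, 7.24% and 11.3% were lower under these settings, in the same order. The fit without the animal block (no paired design) gave 12 higher and 9 lower in the first period, 6 and 17 in the second and 1 and 4 in the total period, so it moved no count by over 1.5 times. Scaling to the 75th percentile moved the median change of all probes by −0.19 in the second and −0.12 in the total period, and quantile normalization by −0.24 and 0.23 in the first and second periods, with 24.5% of all probes higher and 23.3% lower in the first. Without dim probes, the shares of all probes were 31.4% and 31.2% in the first period and 39.6% and 28.3% in the second. Leaving out each animal in turn gave 8 to 14 higher and 8 to 10 lower members in the first period (median 0.22 to 0.32), 5 to 8 and 15 to 17 in the second (−0.36 to −0.19) and 1 and 2 to 5 in the total period (−0.37 to −0.07), and 39 of 48 calls of single members were never lost. Of the same 48 calls, 18 were lost and 5 turned with normexp, 22 were lost with slide as a random block, and of the 20 in the first period 18 were lost and 2 turned with slide as a fixed block. Signs turned for CDT1 in the first period (−0.10 with normexp, −0.091 on slide 2), RRM1 in the second (0.39 with normexp), CCNE2 in the first (0.056 with normexp, 0.78 with slide as a fixed block) and in the second (−0.051 with normexp), AURKB in the first (−0.0098 with normexp), UBE2C in the first and second (−0.21 and 0.012 with quantile normalization) and TPX2 in the first (−0.26 with slide as a fixed block). The causes were not tested. Averaging all probes of a gene was not run, since each member had 1 probe. Signal over background limits CDC6, CCNE2, KIF11 and UBE2C most.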
